A study of Mus musculus with 6 samples.

Results

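Proteasome genes were compared between the prefrontal cortex of wild-type mice and of mice heterozygous for a Cyfip2 mutation, all C57BL/6J adults at postnatal day 56. The set took in every gene whose symbol starts with Psma, Psmb, Psmc, Psmd, Psme, Psmf or Psmg followed by a number, with pseudogenes left out. It held 50 of the 18160 genes in the deposited table, and 49 of these 50 reached a mean normalized count of 10 over the 6 samples and were tested, among 15151 genes in all. Poly(A)-selected RNA was sequenced from 3 wild-type and 3 heterozygous samples. CYFIP2 is a subunit of the WAVE complex, which drives the assembly of branched actin. The sources used here do not give the kind of mutation, the sex of the mice or whether each sample is a separate animal, and the p-values measure only the spread between these samples, which may be technical.

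The proteasome is the protease that degrades proteins tagged with ubiquitin. Its barrel-shaped 20S core is built of stacked rings of alpha and beta subunits, and the active sites lie on the beta subunits encoded by Psmb5, Psmb6 and Psmb7. Cells exposed to interferon can build in Psmb8, Psmb9 and Psmb10 instead, which gives the immunoproteasome and changes the peptides offered to T cells. The 19S cap binds and unfolds substrates: Psmc genes encode its ring of ATPases, and Psmd genes its other base and lid subunits. Psme genes encode caps that work without ATP, and Psmg genes with a few Psmd genes encode chaperones that assemble the particle and then leave it. In neurons the proteasome turns over synaptic proteins.

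Cyfip2 itself, the mutated gene, was at 45454, 43174 and 45627 normalized counts in wild-type samples and 28356, 28578 and 29567 in heterozygotes. Its level in heterozygotes was 64.4% of wild type (limma-trend, adjusted p = 0.0027), which matched the labels. Each column of the table summed to 36.4 to 37.1 M (mega) normalized counts, and read totals, estimated from the most common lowest value, were 27.1 to 48.3 M, lowest in wild-type sample 3. Markers of cortical excitatory and inhibitory neurons were all detected (6 of 6 each). Of the excitatory markers 2 lay above wild type and 4 below, and they summed to 210832 to 216888 in wild-type samples and 193219 to 207790 in heterozygotes, most of it from Camk2a, whose genotypes overlapped. Of the inhibitory markers 5 lay above and 1, Pvalb, below, and they summed to 25178 to 28029 in wild-type samples and 28612 to 29064 in heterozygotes. Markers of the neighbouring striatum summed to 5452 to 5916 in wild-type samples and 4574 to 4719 in heterozygotes. Oligodendrocyte markers lay below wild type for 8 of 8 genes. They summed to 124924 to 174371 in wild-type samples and 121368 to 129957 in heterozygotes, with overlap. Astrocyte markers lay above for 7 of 8 genes. Their sums were 179750 to 211191 in wild-type samples and 191615 to 210339 in heterozygotes, also with overlap. The part of these shifts in the proteasome values was not tested. In tissue RNA, fewer cells of a type and less RNA per cell cannot be told apart.

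Genotypes were compared gene by gene with limma-trend, a linear model on log2(value + 1) whose variances are shrunk toward a trend in expression level. None of the 49 tested proteasome genes passed an adjusted p of 0.05, where 0.0132% of all genes tested did. The smallest adjusted p of a member was 0.95, that of Psmc4. At an unadjusted p under 0.05 there was 1 member, again Psmc4, or 2.04% of the 49 against 5.07% of all genes. It was higher in heterozygotes, as were 2.36% of all genes at that p, and 0 members were lower, against 2.71% of all genes. The genotypes did not overlap in 3 members, or 6.12% against 10.5% of all genes. Psmb8 was the 1 that was higher (background 5.15%), and Psmb10 and Psmc1 were the 2 that were lower (background 5.3%). All these shares were below or near the background. Of the 49 members, 30 lay above wild type and 19 below, with a median log2 fold change of 0.011 against 0.0020 over all genes tested.

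Most of the members were measured closely enough to set narrow bounds. For 36 of the 49, the 95% interval lay within a 1.2-fold change in either direction, against 47.0% of all genes tested. Of the 31 constitutive subunits of the core and the 19S cap, 28 had such an interval, or 90.3%, and Psmc4, Psmd13 and Psmd14 did not. Among the 4261 genes in the same range of mean levels the share was 82.5%.

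**Figure D1:**
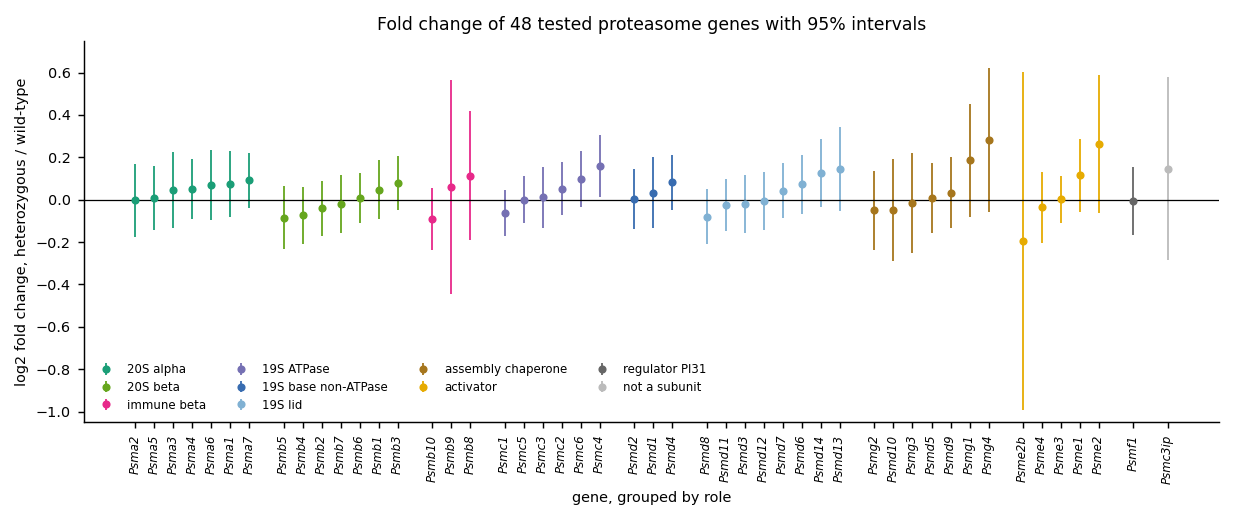
Log2 fold change of heterozygous over wild-type samples (y axis) for 48 tested proteasome genes grouped by role (x axis, colours), with points for the limma-trend estimates and bars for 95% confidence intervals (3 samples per genotype). Every interval but that of Psmc4 crosses 0; Psmb11, at -1.29 with an interval of -2.74 to 0.17, lies off this scale and is not drawn.

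Levels of different genes were set side by side per kilobase of transcript. The 31 constitutive subunits lay between 749 (Psma2) and 4139 (Psmc5) normalized counts per kilobase in wild-type samples, a 5.52-fold span, and 26 of the 31 fell between 1000 and 3000. Their median was 1898. The low place of Psma2 depends on its annotated transcript length of 2911 bases. Undivided, its wild-type mean of 2181 lay within the 1902 (Psma5) to 2329 (Psma7) of the constitutive alpha genes. The 7 assembly chaperones were at 229 to 356 normalized counts per kilobase, with a median 7.28 times below the constitutive one. This narrow range also depends on annotated lengths. Before division by length, the chaperones' wild-type means ran from 120 (Psmg4, 514.5 bases) to 1109 (Psmd5, 4397 bases). Among the immune genes, Psmb8 was at 53.7 ± 1.16 and Psmb9 at 28.5 ± 3.84 normalized counts per kilobase (SD, n = 3). Psmb10 stood apart from both, at 711 ± 29.7, next to Psma2 at 749 ± 54.6 (SD, n = 3), and these neighbours did not differ beyond their spread. Near the top, Psmb7 at 2661 ± 180.0, Psmc3 at 2640 ± 112 and Psmb6 at 2610 ± 54.6 (SD, n = 3) likewise differed by less than their spread.

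**Figure D2:**
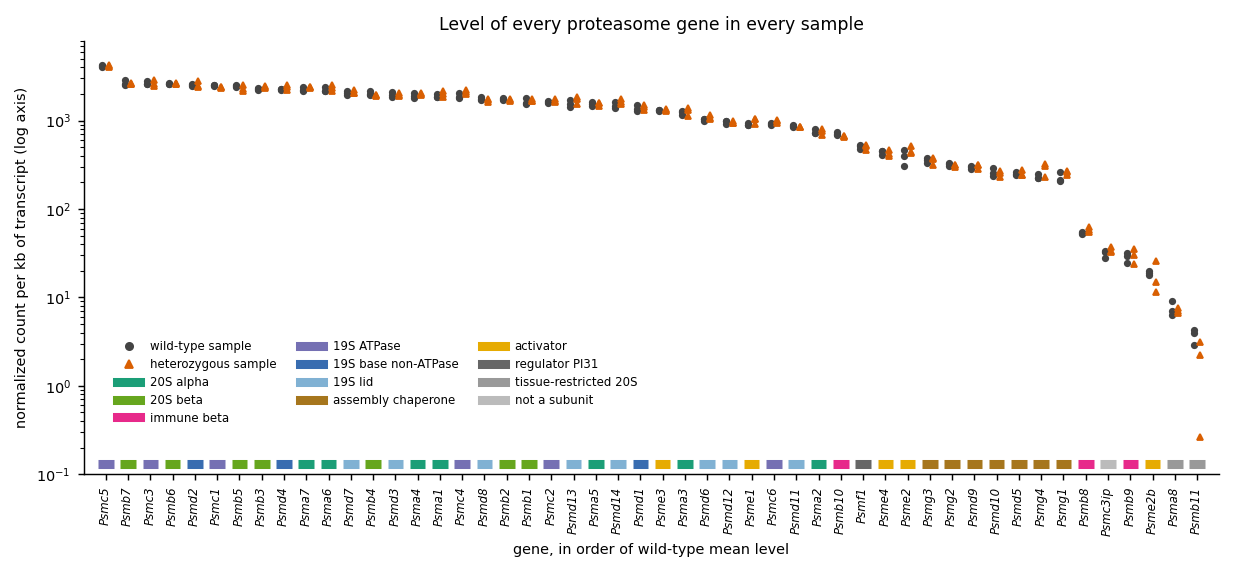
Normalized count per kilobase of transcript (y axis, log scale) for all 50 proteasome genes in order of their wild-type mean (x axis), with circles for the 3 wild-type and triangles for the 3 heterozygous samples and a coloured bar for the role. Psmc5 lies highest at 4139 in wild type, the constitutive subunits form a plateau, the chaperones lie on a lower step, and Psmb8 at 53.7 and Psmb9 at 28.5 lie far below the constitutive catalytic genes.

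Alpha subunits form the outer rings of the core and its gate. Of the 7 constitutive alpha genes, Psma1 to Psma7, 6 lay above wild type and 1 below, at a median log2 fold change of 0.050 and a range of -0.0036 to 0.092. Psma7 had the smallest p and the highest fold change of them, at 2286, 2464 and 2236 normalized counts in wild-type samples and 2511, 2435 and 2494 in heterozygotes. Heterozygous sample 2 lay below wild-type sample 2, so the genotypes overlapped. Psma7 differed by 0.092 ± 0.058 (SE) on the log2 scale, with an interval of -0.037 to 0.22 (limma-trend, adjusted p = 0.95). Psma2, with the lowest fold change, was at 2365, 2095 and 2084 normalized counts in wild-type samples and 2325, 1980 and 2226 in heterozygotes. In both genotypes sample 1 was the highest, and the ranges overlapped.

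The reads of Psma3 cannot all be assigned with certainty, because it shares 685 bases at 100% identity with the processed pseudogene Gm13835. Psma3 was at 2321, 2389 and 2157 normalized counts in wild-type samples and 2458, 2557 and 2093 in heterozygotes. Gm13835 was at 519, 306 and 483 normalized counts in wild-type samples and 487, 397 and 526 in heterozygotes. In each genotype sample 2 had the most Psma3 and the least Gm13835. Their sum was 2725 ± 103 in wild-type samples and 2839 ± 190.5 in heterozygotes (SD, n = 3 for each), with overlap.

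Beta subunits form the inner rings, and 3 of them cut the substrate. Of the 7 constitutive beta genes, Psmb1 to Psmb7, 3 lay above wild type and 4 below, at a median log2 fold change of -0.020 and a range of -0.086 to 0.076. Psmb3, a structural subunit, had the smallest p, at 1732, 1785 and 1691 normalized counts in wild-type samples and 1886, 1779 and 1827 in heterozygotes. Heterozygous sample 2 fell within the wild-type range. The log2 difference was 0.076 ± 0.057 (SE) (limma-trend, adjusted p = 0.95).

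Psmb5 encodes the chymotrypsin-like site and was at 1915, 1892 and 1843 normalized counts in wild-type samples and 1662, 1750 and 1921 in heterozygotes. Heterozygous samples 1 and 2 lay below all wild-type samples and heterozygous sample 3 above them, and the log2 fold change was -0.086 (interval -0.23 to 0.062). Psmb6 encodes the caspase-like site and was one of the steadiest members, at 2132, 2049 and 2068 normalized counts in wild-type samples and 2109, 2083 and 2092 in heterozygotes. Its level in heterozygotes was 101% of wild type, with an interval of 92.7% to 109%. Psmb7 encodes the trypsin-like site and was at 3315, 3039 and 2906 normalized counts in wild-type samples and 3111, 2989 and 3017 in heterozygotes, with overlap. The heterozygous level of Psmb7 was 98.6% of wild type (interval 89.7% to 108%). Psmb7 shares 255 bases with Nek6 on the opposite strand. The libraries kept strand, but whether the counting used it was not stated in the labels.

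Immune subunits replace the catalytic ones in the immunoproteasome. Psmb8, which takes the place of Psmb5, was at 85.6, 89.4 and 87.1 normalized counts in wild-type samples and 89.5, 101 and 93.8 in heterozygotes. The genotypes did not overlap, but heterozygous sample 1 and wild-type sample 2 were almost level. Its log2 fold change of 0.11 ± 0.14 (SE) had an interval of -0.19 to 0.42 (limma-trend, adjusted p = 0.98). Psmb9, which takes the place of Psmb6, was at 39.3, 33.0 and 43.2 normalized counts in wild-type samples and 32.3, 41.1 and 47.8 in heterozygotes. Heterozygotes held both the lowest and the highest value of Psmb9. At this low level its interval was wide, 73.5% to 148% of wild type. It also shares 212 bases with Tap1 on the opposite strand.

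Psmb10, which takes the place of Psmb7, was at 895, 928 and 972 normalized counts in wild-type samples and 877, 859 and 884 in heterozygotes. All heterozygous values of Psmb10 lay below all wild-type values. The log2 difference was -0.092 ± 0.066 (SE), with an interval of -0.24 to 0.054 (limma-trend, adjusted p = 0.95). The 2 immune genes without overlap thus lay on opposite sides of wild type. The median over the 3 immune genes was 0.059.

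The immune share of a catalytic pair was the immune gene's level per kilobase as a percentage of the sum of both genes. For Psmb8 with Psmb5 it was 2.05%, 2.16% and 2.16% in wild-type samples and 2.45%, 2.62% and 2.23% in heterozygotes. All heterozygous shares of this pair lay above all wild-type shares. For Psmb9 with Psmb6 the share was 1.08% ± 0.139 in wild-type samples and 1.13% ± 0.219 in heterozygotes (SD, n = 3 for each), and for Psmb10 with Psmb7 it was 21.1% ± 1.79 in wild-type samples and 20.3% ± 0.316 in heterozygotes (SD, n = 3 for each). In both of these pairs the genotypes overlapped. Over the 3 pairs together, immune genes made up 9.29% ± 0.619 in wild-type samples and 9.05% ± 0.035 in heterozygotes (SD, n = 3 for each) of the catalytic level. Most of this pooled share came from Psmb10, at 711 normalized counts per kilobase in wild type against 53.7 for Psmb8 and 28.5 for Psmb9. With each gene counted alike, the mean log2 level of the immune genes minus that of the constitutive ones was -3.96 ± 0.10 in wild-type samples and -3.90 ± 0.093 in heterozygotes (SD, n = 3 for each). The difference of 0.059 between genotypes was smaller than either SD, and it ran from 0.024 to 0.12 when single samples were left out.

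**Figure D3:**
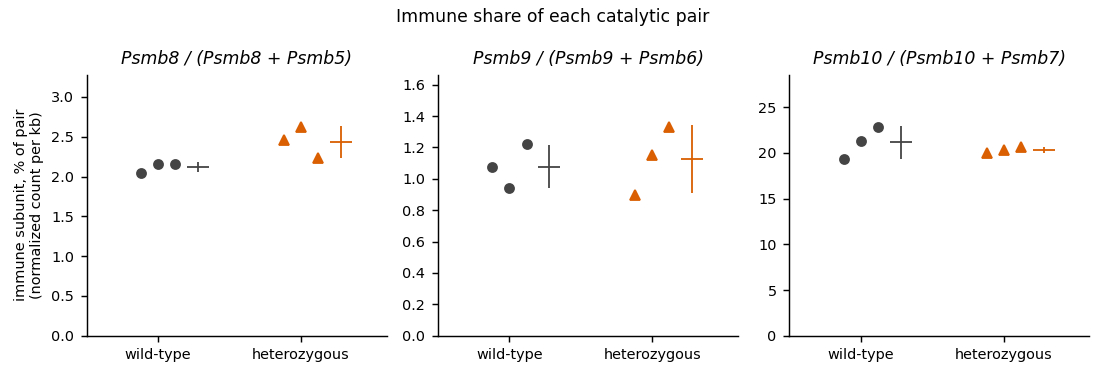
Share of the immune subunit in each catalytic pair (y axis, percent of the pair's normalized counts per kilobase, from 0) in wild-type (circles) and heterozygous (triangles) samples, with the mean and SD of 3 samples as a dash and bar beside them. Psmb8 makes up 2.05% to 2.62% of its pair, Psmb9 0.895% to 1.33% and Psmb10 19.3% to 22.8%.

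Markers of cells known to carry immunoproteasomes were read beside these genes. Microglial markers lay above wild type for 9 of 12 genes, and summed to 14889 to 18365 in wild-type samples and 16787 to 17415 in heterozygotes, with overlap. Endothelial markers lay above for 9 of 10 genes, and summed to 11512 to 13866 in wild-type samples and 12876 to 14287 in heterozygotes, also with overlap. Of 11 markers of lymphocytes and blood leukocytes 8 were in the table and 3 passed the filter on low values. The 8 summed to 219.9 to 238 in wild-type samples and 226 to 264 in heterozygotes, with overlap. The tested ones, Ptprc, Cd79a and Cd4, stood at log2 differences of 0.15 ± 0.12 (SE), 0.33 ± 0.32 (SE) and -0.082 ± 0.29 (SE), each with overlap. Below the filter, the T cell marker Cd8a had a mean of 5.18 in wild-type samples and 2.83 in heterozygotes, with overlap. The part of these cells in the levels of Psmb8, Psmb9 and Psmb10 was not tested.

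The bases before the start sites were searched for elements of known proteasome and interferon control, since constitutive and immune catalytic genes differed so widely in level. RefSeq windows were matched for 42 of the 50 members, and the 250 bases before each start were searched on both strands. The antioxidant response element core TGACNNNGC, a motif of the proteasome activator NFE2L1, stood before 4 of 25 constitutive genes, Psmb5, Psmb6, Psmc6 and Psmd12. That is 14.8% of their windows against 10.2% of all 32851 windows. The letters CCAAT were in 37.0% of the constitutive windows against 33.8% of all, and the GC box GGGCGG in 51.9% against 32.7%. The core of the interferon-stimulated response element was in 7.41% of the constitutive windows, those of Psmb3 and Psmd4, against 2.98% of all. It was in the windows of 0 of the 3 immune genes. The interferon-gamma activated site core TTCNNNGAA was before 0 constitutive genes, in 7.02% of all windows and in that of 1 immune gene, Psmb8. All 250 bases of the Psmb8 and Psmb9 windows lie within annotated exons, as do those of the constitutive Psma4 and Psmd13. For these genes the search therefore did not cover bases upstream of all annotated exons. A match only says that these letters are there. The stretches are shown for 2 constitutive catalytic genes, for the abundant immune gene Psmb10 and for the ATPase genes with the highest and the lowest fold change, to set their elements side by side. They are from RefSeq (GRCm38.p6), 5′ to 3′ on the gene's strand and cut where an annotated exon begins, with motif matches in capitals. The windows of Psmb8 and Psmb9 lie wholly within annotated exons and are not shown.
Psmb5, minus strand, chr14:54618023-54618245: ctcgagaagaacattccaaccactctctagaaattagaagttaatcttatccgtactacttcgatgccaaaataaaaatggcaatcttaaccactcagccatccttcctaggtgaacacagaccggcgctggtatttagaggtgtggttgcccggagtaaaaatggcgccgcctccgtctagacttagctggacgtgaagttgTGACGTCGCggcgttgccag
Psmb6, plus strand, chr11:70525107-70525356: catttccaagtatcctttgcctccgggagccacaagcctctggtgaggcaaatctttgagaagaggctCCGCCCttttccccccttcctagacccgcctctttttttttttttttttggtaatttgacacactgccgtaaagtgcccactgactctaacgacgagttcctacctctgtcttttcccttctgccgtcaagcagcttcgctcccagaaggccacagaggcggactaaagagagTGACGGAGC
Psmb10, minus strand, chr8:105938445-105938642: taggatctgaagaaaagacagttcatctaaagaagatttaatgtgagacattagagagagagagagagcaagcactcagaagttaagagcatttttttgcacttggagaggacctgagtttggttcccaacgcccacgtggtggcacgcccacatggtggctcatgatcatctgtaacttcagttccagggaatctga
Psmc4, minus strand, chr7:28050102-28050342: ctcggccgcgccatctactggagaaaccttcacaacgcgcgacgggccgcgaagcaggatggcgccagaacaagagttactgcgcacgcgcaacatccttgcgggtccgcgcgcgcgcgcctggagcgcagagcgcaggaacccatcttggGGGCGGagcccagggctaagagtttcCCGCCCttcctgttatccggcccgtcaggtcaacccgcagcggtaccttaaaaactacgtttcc
Psmc1, plus strand, chr12:100109952-100110153: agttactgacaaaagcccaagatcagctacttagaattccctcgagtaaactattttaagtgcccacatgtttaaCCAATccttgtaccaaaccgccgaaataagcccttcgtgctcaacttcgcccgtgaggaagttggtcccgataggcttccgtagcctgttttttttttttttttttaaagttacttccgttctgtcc
Psmb5 and Psmb6 each hold 1 TGACNNNGC match close to the start, and the stretch of Psmb10 holds no match to any of the 5 motifs. Psmb7, whose place Psmb10 takes, had no matched window and was not searched.

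The ATPase ring of the 19S cap unfolds substrates and threads them into the core. Of its 6 genes, Psmc1 to Psmc6, 4 lay above wild type and 2 below, at a median log2 fold change of 0.031 and a range of -0.062 to 0.16. Psmc4 had the highest fold change of all constitutive subunits and was at 2718, 2481 and 2399 normalized counts in wild-type samples and 2964, 2827 and 2680 in heterozygotes. Only heterozygous sample 3 and wild-type sample 1 crossed over. The log2 difference of Psmc4 was 0.16 ± 0.066 (SE), with an interval of 0.010 to 0.31 and an unadjusted p of 0.038 (limma-trend, adjusted p = 0.95). Psmc1 had the lowest fold change, at 3999, 3972 and 3900 normalized counts in wild-type samples and 3737, 3853 and 3781 in heterozygotes. All heterozygous values lay below all wild-type values, but the distance was small: the level in heterozygotes was 95.8% of wild type (interval 88.9% to 103%). Psmc5, the most abundant of the ring per kilobase, had means of 5446 ± 94.3 in wild-type samples and 5446 ± 182 in heterozygotes (SD, n = 3 for each).

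The 3 non-ATPase base subunits join the ring to the lid and take up ubiquitin chains, and the fold changes of all 3 lay above 0 by 0.0044 to 0.081 on the log2 scale. Psmd4, a ubiquitin receptor, was at 3018, 2979 and 3014 normalized counts in wild-type samples and 3369, 3188 and 2985 in heterozygotes. The wild-type samples were nearly identical, and heterozygous sample 3 fell among them. Its log2 difference was 0.081 ± 0.058 (SE) (limma-trend, adjusted p = 0.95). Psmd2, a large scaffold subunit, was at 7671, 7446 and 7304 normalized counts in wild-type samples and 8208, 7044 and 7283 in heterozygotes. Heterozygotes held both the highest value and the 2 lowest values of Psmd2, at a log2 fold change of 0.0044.

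The lid removes ubiquitin before a substrate enters. Of its 8 genes, 4 lay above wild type and 4 below, at a median log2 fold change of 0.017 and a range of -0.080 to 0.14. Psmd14, the deubiquitinase of the lid, had the smallest p and was at 2510, 2165 and 2253 normalized counts in wild-type samples and 2668, 2499 and 2387 in heterozygotes. Heterozygous samples 2 and 3 lay below wild-type sample 1. Its log2 difference was 0.13 ± 0.071 (SE), with an interval of -0.033 to 0.29 (limma-trend, adjusted p = 0.95). Psmd13, a structural lid subunit, had the highest fold change, 0.14 ± 0.089 (SE), and was at 2367, 2105 and 1943 normalized counts in wild-type samples and 2401, 2128 and 2561 in heterozygotes. The genotypes overlapped, and Psmd13 shares 329 bases with Sirt3 on the opposite strand. Psmd8 had the lowest fold change and was at 2821, 2628 and 2679 normalized counts in wild-type samples and 2654, 2444 and 2595 in heterozygotes, with overlap. The heterozygous level of Psmd8 was 94.6% of wild type (interval 86.5% to 103%).

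Assembly chaperones were represented by 7 genes, of which 4 lay above wild type and 3 below, at a median log2 fold change of 0.0075. Psmg4, which acts in building the alpha ring, was at 116, 128 and 116 normalized counts in wild-type samples and 158, 118 and 165 in heterozygotes. Heterozygous sample 2 lay within the wild-type range and the other two above it. The log2 fold change of Psmg4, 0.28 ± 0.15 (SE), was the highest of the 49 members, with an interval of -0.058 to 0.62 (limma-trend, adjusted p = 0.95). Psmg2, the partner of Psmg1 in an alpha-ring chaperone, had the lowest and was at 378, 359.7 and 390.2 normalized counts in wild-type samples and 355, 366 and 367 in heterozygotes. Its values overlapped between genotypes. The chaperones of the 19S base, Psmd5, Psmd9 and Psmd10, were at log2 fold changes of 0.0075, 0.034 and -0.048.

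Activators open the core without ATP. Psme1 and Psme2 encode the interferon-inducible cap PA28, while Psme3 and Psme4 encode activators found in the nucleus. Psme2 was at 270.3, 406 and 346 normalized counts in wild-type samples and 455, 385 and 376 in heterozygotes. Wild-type sample 1 was the lowest and heterozygous sample 1 the highest, and wild-type sample 2 lay among the heterozygotes. The log2 difference was 0.26 ± 0.15 (SE), with an interval of -0.062 to 0.59 (limma-trend, adjusted p = 0.95). Its transcript is 99.4% identical over 794 bases to that of Psme2b, so reads cannot be assigned between them with certainty. Psme2b was at 16.8, 15.8 and 15.02 normalized counts in wild-type samples and 12.4, 9.51 and 21.8 in heterozygotes, and heterozygotes held both its lowest and its highest value. The sum of Psme2 and Psme2b was 357 ± 67.3 in wild-type samples and 419.7 ± 41.0 in heterozygotes (SD, n = 3 for each). Psme1 stood at a log2 difference of 0.11 ± 0.076 (SE), Psme3 at 0.0023 ± 0.050 (SE) and Psme4 at -0.037 ± 0.075 (SE). Psmf1, which encodes the core-binding regulator PI31, was at 1231, 1335 and 1369 normalized counts in wild-type samples and 1361, 1341 and 1218 in heterozygotes. Its interval was 89.2% to 111% of wild type.

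A few members were near the limit of detection or are not subunits. Psma8, the alpha form of the testis, was at 8.58, 9.40 and 12.2 normalized counts in wild-type samples and 9.43, 10.3 and 8.95 in heterozygotes and was not tested. Psmb11, the beta form of the thymus, was at 16.9, 18.3 and 12.3 normalized counts in wild-type samples and 13.3, 9.36 and 1.13 in heterozygotes. Heterozygous sample 3 lay far below the rest, and the log2 fold change of -1.29 ± 0.65 (SE) (limma-trend, adjusted p = 0.95) was -0.45 without that sample. Psmc3ip matches the naming pattern but encodes a factor of meiotic recombination, and was at 42.0, 43.2 and 35.7 normalized counts in wild-type samples and 41.9, 48.5 and 43.5 in heterozygotes, with overlap. It shares 385 bases with Mlx on the opposite strand. On chromosome 11, which carries Cyfip2, lay 10 of the 50 members, and the nearest to it was Psme2b, at 2.63 Mb.

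Sample by sample, the constitutive subunits moved together in part. Of the 31 genes, 14 were highest in heterozygous sample 1 and 10 in wild-type sample 1, while 11 were lowest in wild-type sample 2 and 8 in wild-type sample 3. Their mean log2 level, relative to the wild-type mean, was 0.053, -0.025 and -0.028 in wild-type samples 1 to 3 and 0.070, -0.0085 and 0.023 in heterozygous samples 1 to 3. The genotypes overlapped, and the difference of 0.028 was below the SD of 0.046 among wild-type samples and 0.040 among heterozygotes. The class mean of the alpha genes ranged from -0.057 to 0.12 over the 6 samples, that of the non-ATPase base genes from -0.045 to 0.14 and that of the beta genes from -0.032 to 0.059. Gene by gene, the median coefficient of variation of the constitutive subunits was 5.08% in wild-type samples and 4.23% in heterozygotes. Over the 4261 genes in the same range of mean levels it was close to this, at 5.11% and 4.72%.

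**Figure D4:**
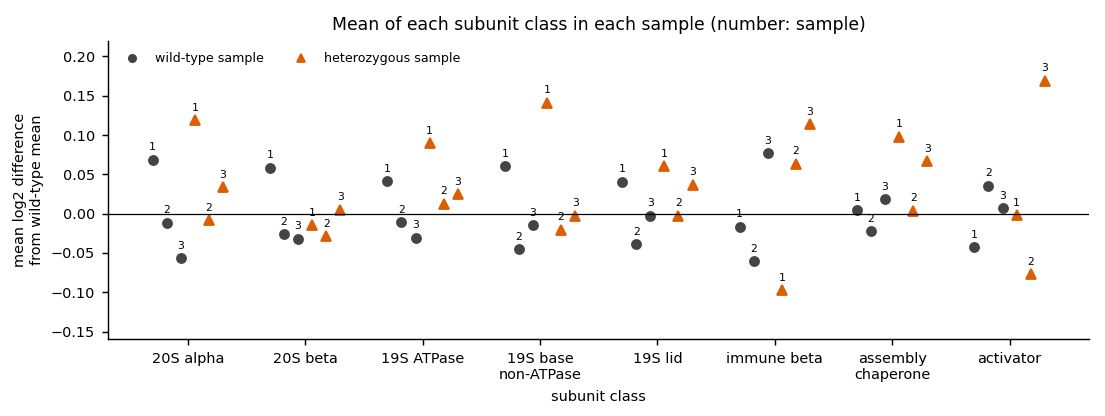
Mean log2 difference from the wild-type mean (y axis) for each subunit class (x axis) in wild-type samples (circles) and heterozygous samples (triangles), numbered by sample. In the alpha, ATPase, base and lid classes heterozygous sample 1 is highest, up to 0.14 in the base class, and wild-type sample 1 stands above the other wild-type samples.

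Genes that work with the proteasome were read from further lists. Of 20 measured partners and assembly factors outside the Psm names, 0 passed an adjusted p of 0.05, with 13 above and 7 below wild type and a median of 0.018 on the log2 scale. Ufd1, a cofactor of the segregase VCP, was at 1993, 2011 and 1993 normalized counts in wild-type samples and 2156, 2202 and 2193 in heterozygotes. All heterozygous values lay above all wild-type values, by 0.13 ± 0.052 (SE) on the log2 scale (limma-trend, adjusted p = 0.95). Sem1, a small lid subunit without a Psm name, was at 1274, 1006 and 1049 normalized counts in wild-type samples and 1486, 1155 and 1217 in heterozygotes. In both genotypes sample 1 was the highest.

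Of 9 transcription factors known to act on proteasome genes, 0 passed, with 5 above and 4 below wild type. Foxo4, a forkhead factor, was at 579, 726 and 685 normalized counts in wild-type samples and 513, 597 and 592 in heterozygotes. The genotypes overlapped, and the log2 difference was -0.22 ± 0.10 (SE) (limma-trend, adjusted p = 0.95). Nfe2l1, which raises proteasome genes when proteolysis is impaired, was at -0.092 ± 0.056 (SE) on that scale, also with overlap.

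Ubiquitin and its activating enzymes were covered by 6 genes, of which 0 passed, with 3 above and 3 below wild type. Uba1, the main ubiquitin-activating enzyme, was at 9751, 10221 and 9997 normalized counts in wild-type samples and 11141, 10779 and 10536 in heterozygotes. There was no overlap, and the log2 difference was 0.11 ± 0.048 (SE) (limma-trend, adjusted p = 0.95).

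Antigen processing and interferon genes stand next to the immunoproteasome in function. Of 10 antigen-processing genes 0 passed, with 6 above and 4 below wild type. H2-K1, a class I heavy chain, was at 776, 789 and 734 normalized counts in wild-type samples and 906, 928 and 797 in heterozygotes. The genotypes did not overlap, and the log2 difference was 0.19 ± 0.079 (SE) (limma-trend, adjusted p = 0.95). Calr, a chaperone of class I folding, was at -0.068 ± 0.048 (SE) on that scale, and all its heterozygous values lay below all wild-type values. Of 20 interferon-induced genes 0 passed, with 10 above and 10 below wild type and a median of 0.0072 on the log2 scale. Ifit3, an antiviral gene, was at 262, 249.99 and 246 normalized counts in wild-type samples and 295, 279 and 325 in heterozygotes, without overlap, and its log2 difference was 0.24 ± 0.098 (SE) (limma-trend, adjusted p = 0.95).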

How the data were processed

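Libraries were prepared with a stranded kit selecting poly(A) RNA, per the labels' protocols. The deposited table gives for each gene a normalized signal and no raw read numbers; the submitters' processing notes name Salmon 0.11.2, R 3.6.0, DESeq2 1.19.11 and GRCm38 without saying what each did. Because the scaling of each gene is unknown, levels of different genes are approximate. Symbols were matched for 18122 of 18160 identifiers. Positions, overlaps and transcript lengths (the median over a gene's basic transcripts) are from GENCODE M21. The test, two-sided, was limma-trend (limma 3.58.1, R 4.3.3) on log2(value + 1), with genotype as the only term, over genes with a mean of 10 or more and with Benjamini-Hochberg adjustment over all 15151 of them. Fold changes are on this scale, which understates those of low genes. Intervals are 95% intervals of that model. Near-identical copies were sought with BLAST 2.17.0 (at least 95% identity over 200 bases). The procedure was tested on simulated data. An exact permutation test of 3 against 3 samples cannot go below p = 0.1 and was not used.

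The members and lists were chosen with earlier results of these data known, and no test was run on a list. Full values were given for the 6 catalytic genes and, in each class, for the genes with the smallest p, the highest and the lowest fold change. From each other pathway list the 2 genes with the smallest p were named; a few of these are not reported here. Psma3, Psmc5, Psmd5, Psmd9, Psmd10, Psme1, Psme3, Psme4, Psma8, Nfe2l1, Camk2a, Pvalb, Ptprc, Cd79a, Cd4 and Cd8a were named after their values were seen, and the interval limit of 1.2-fold was set then too. Alternatives were TMM scaling, an untrended and a robust limma fit, other filters (none, or a mean of 50) and pseudocounts (0.5 and 5), a block for sample number, and the omission of single samples. Correcting for GC content and length, with and without that block, was chosen after seeing the data.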

Additional observations from a re-analysis of the deposited data

How the results depend on the processing

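No proteasome gene passed an adjusted p of 0.05 in any of the 16 alternatives; the smallest adjusted p of a member was 0.37 (Psmc4, limma-trend with the sample number as a block). Of 364 values of the 23 genes with full values, 352 kept their direction and their side of the threshold, and the 12 that changed sign did so when 1 sample was left out. The untrended and robust fits, the other filters and the block alone leave each gene's fold change as it was. Direction could not change in those settings, so they say nothing on how stable it is. Leaving out each sample in turn, log2 fold changes ran from -0.053 to 0.063 for Psma2, -0.0033 to 0.025 for Psmb6, -0.063 to 0.032 for Psmb7, -0.069 to 0.21 for Psmb9, -0.061 to 0.049 for Psmd2, -0.051 to 0.044 for Psmf1 and -0.51 to 0.050 for Psme2b. Without changing sign, Psme2 ran from 0.11 to 0.40 (lowest without wild-type sample 1, highest without wild-type sample 2), Psmg4 from 0.19 to 0.43 (highest without heterozygous sample 2), Psmd13 from 0.078 to 0.22 (lowest without wild-type sample 3, highest without wild-type sample 1) and Psmb5 from -0.14 to -0.039 (nearest 0 without heterozygous sample 1, farthest without heterozygous sample 3). Psmb8, Psmb10, Psmb11, Psmc3ip, Psmd4, Psmd8, Psmd14 and Psmg2 also moved by over 1.5 times, while Psma7, Psmb3, Psmc1 and Psmc4 did not. Every class median moved by over 1.5 times: constitutive 20S genes from 0.0035 to 0.056 (lowest without wild-type sample 3, highest without wild-type sample 1), ATPase genes from -0.000090 to 0.065 and other 19S genes from -0.012 to 0.053 (for both, lowest without heterozygous sample 1 and highest without heterozygous sample 2) and immune genes from -0.069 to 0.15 (lowest without heterozygous sample 3, highest without heterozygous sample 1), with -0.046 when wild-type sample 2 was left out. The immune minus constitutive difference ran from 0.024 to 0.12 (lowest without wild-type sample 1, highest without wild-type sample 3). With a mean of 50 as the filter, Psmb9 dropped out and the immune minus constitutive difference had no value. Deviations from the genotype means of samples with the same number correlated at 0.13, 0.12 and -0.0052 over 15151 genes, against -0.16 to 0.046 for the 6 pairs with different numbers. No label says that the numbers mark pairs, so the block was kept as an alternative. The first 2 same-numbered pairs were nonetheless the highest of all 9 pairs. For each gene the deviations within a genotype cancel out, so the 9 correlations are not independent of one another. Their ranking therefore cannot show whether the numbers mark pairs. With the replicate block 0 members passed. Fold changes and class medians could not move under the block, because each number occurs once in each genotype. The cause of the changes between settings was not tested. Precision was lowest for Psmb11, Psme2b, Psmb9 and Psmc3ip, whose levels were lowest.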

Other observations

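Psma1 and Psma6, alpha subunits on chromosomes 7 and 12, had almost the same normalized count in every sample. Psma1 was at 2174, 1992 and 1987 in wild-type samples and 2318, 2009 and 2155 in heterozygotes. Psma6 was at 2200, 1983 and 1976 in wild-type samples and 2334, 1996 and 2143 in heterozygotes. Their ratio stayed between 0.988 and 1.007. The SD of the log2 ratio over the 6 samples was 0.012, the smallest of the 465 pairs of constitutive subunits, whose median SD was 0.086. Next came the ATPase gene Psmc3 with the base gene Psmd2, at an SD of 0.021. These pairs were picked after their values were seen, the genes share libraries and normalization, and no test was made.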
